A study of Mus musculus with 2 samples.

Results

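The genes described here are the 10 core members of the Hippo pathway, namely the coactivators Yap1 and Wwtr1 (which encodes TAZ), the transcription factors Tead1, Tead2, Tead3 and Tead4, the kinases Lats1 and Stk3, the scaffold Sav1 and the upstream regulator Nf2. They were taken by symbol as 10 of the 31053 rows of a single-cell count matrix of cultured mouse small intestinal organoids, small epithelial bodies that keep the crypt and its cell types in a dish. Their identifiers in the deposited gene list are ENSMUSG00000053110 (Yap1), ENSMUSG00000027803 (Wwtr1), ENSMUSG00000055320 (Tead1), ENSMUSG00000030796 (Tead2), ENSMUSG00000002249 (Tead3), ENSMUSG00000030353 (Tead4), ENSMUSG00000040021 (Lats1), ENSMUSG00000022329 (Stk3), ENSMUSG00000021067 (Sav1) and ENSMUSG00000009073 (Nf2). There is 1 library labelled control and 1 labelled melatonin-treated, each pooled from 3 organoid lines at culture day 3, and the labels give no dose, strain or age. The matrix, barcode and gene files of both samples were identical (3 of 3), so that all values come from 1 matrix whose barcodes carry the suffix 1 (set 1) or 2 (set 2). Nothing in the labels or headers links a suffix to a treatment, so melatonin-treated cells could not be set against controls, there are no replicates, and no test was run. Ratios between the sets are given as set 2 over set 1, an arbitrary direction, and every interval is a 95% interval that covers counting error only.

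In the Hippo pathway the kinase Stk3, held by the scaffold Sav1 and promoted by Nf2, activates Lats1, which phosphorylates YAP and TAZ and so keeps them out of the nucleus. YAP and TAZ that escape this reach the nucleus and drive transcription through TEAD factors, since they do not bind DNA themselves. In the intestine YAP is known for its part in regeneration after injury, when crypt cells pass through a fetal-like state. Much of this control acts on the proteins, through phosphorylation and location, which RNA counts do not measure.

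Counts of unique molecular identifiers (UMIs, each standing for 1 captured RNA molecule) were used from barcodes that held 500 or more genes and 1000 or more UMIs, of which no more than 20% were mitochondrial. This left 2300 of 12364 barcodes in set 1 and 1766 of 9442 in set 2, with median depths of 29872 and 28759 UMIs, and 29 barcode sequences of the whole matrix occurred in both sets (leaving these out kept 2295 and 1764 cells). The 6 epithelial markers summed to 3177 CPM (UMIs scaled to a total of 1000000 per set or class) in set 1 and 3927 CPM in set 2, whereas the marker lists of immune, mesenchymal and endothelial cells each summed to between 0.406 and 5.03 CPM, with Ptprc, Col3a1 and Dcn at 0. Cells were sorted by a mean log2 score of marker genes, none of which is a Hippo member. This gave enteroendocrine-like cells (141 in set 1 and 169 in set 2) and enterocyte-like cells (81 and 153), the hormone-secreting and the absorptive cells of the gut lining. Cells past no gate of a mature type were split by cell cycle genes into cells in G2 or mitosis (352 and 190), cells in S phase (90 and 163) and cells of neither phase (1585 and 1048). Most cells fell in no named type (86.5% of set 1 and 78.8% of set 2), and the gates cut through continuous scores. For the enteroendocrine gate 146 cells lay within 0.25 above the limit and 116 within 0.25 below it, of 316 above it in all. The cycle gates cut through more cells near the limit, with 206 of 257 cells past the S-phase gate within 0.25 above it and 303 within 0.25 below, and 436 of 546 and 598 for G2 or mitosis.

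The promoters of the coactivators and of the kinase that restrains them are shown because Yap1 and Lats1 stood on opposite sides in the enteroendocrine-like cells described further on, and because Wwtr1 is the paralog that stayed scarce. Each sequence holds the 250 bases before the annotated start, taken from RefSeq on build GRCm38.p6 and read 5′ to 3′ on the strand of the gene. They lie at chr9:8004597-8004846 (minus strand) for Yap1, chr3:57575911-57576160 (minus strand) for Wwtr1 and chr10:7680959-7681208 (plus strand) for Lats1. Capitals mark the letters GGAATG, the core of the element bound by TEAD factors, which was searched on both strands (as GGAATG and as CATTCC).
Yap1: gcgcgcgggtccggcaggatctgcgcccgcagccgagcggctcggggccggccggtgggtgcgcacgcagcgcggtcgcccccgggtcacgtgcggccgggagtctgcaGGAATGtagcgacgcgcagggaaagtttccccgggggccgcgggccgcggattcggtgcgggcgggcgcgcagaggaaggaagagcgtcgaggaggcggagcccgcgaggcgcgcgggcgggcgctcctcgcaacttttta
Wwtr1: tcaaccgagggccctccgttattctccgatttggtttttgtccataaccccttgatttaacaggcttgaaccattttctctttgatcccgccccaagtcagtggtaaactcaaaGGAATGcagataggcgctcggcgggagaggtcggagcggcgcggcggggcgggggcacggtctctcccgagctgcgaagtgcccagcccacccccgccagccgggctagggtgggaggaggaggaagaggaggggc
Lats1: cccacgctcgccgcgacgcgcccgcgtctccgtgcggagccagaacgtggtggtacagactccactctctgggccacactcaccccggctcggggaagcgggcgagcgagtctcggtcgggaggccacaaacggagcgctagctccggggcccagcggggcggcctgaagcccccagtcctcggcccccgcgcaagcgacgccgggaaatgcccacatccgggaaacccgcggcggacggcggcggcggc
In these windows Yap1 and Wwtr1 each had 1 match, with its first base 141 and 136 bases before the start, and Lats1 had none. Of the 10 members 7 had a promoter entry, and their 11 windows included 6 with a match, from Yap1, Wwtr1, Tead3 and Sav1. The windows of 1 gene can overlap, and both Wwtr1 windows hold the same match. Over all promoters listed there, 4153 of 32851 windows of this length (12.6%) held the motif. A match is a description of letters and not a binding site, and the absence of one in Tead2, Lats1 and Nf2 covers these windows only. GC content was 76.4% in the Yap1 window, 74.8% in that of Lats1 and 61.6% in that of Wwtr1.

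The 9 members with enough UMIs to be tested differed little between the sets, and the tenth, Tead4, rested on few UMIs. Yap1 was at 22.7 CPM in set 1 (interval 21.5 to 23.9, 1397 UMIs) and 22.7 CPM in set 2 (21.4 to 24, 1160 UMIs), a fold of 1.0 (0.925 to 1.08). The TAZ gene Wwtr1 was scarce, with 73 UMIs in set 1 (1.18 CPM) and 87 in set 2 (1.70 CPM), a fold of 1.44 (1.04 to 1.99), although the mean over single cells put it lower in set 2 (log2 ratio -0.14). Of the UMIs of Yap1 and Wwtr1 together, Wwtr1 made up 4.97% in set 1 (3.91% to 6.20%) and 6.98% in set 2 (5.63% to 8.53%). A UMI of Yap1 was seen in 37.7% of the cells of set 1 and 40.4% of those of set 2, and when each cell was thinned to 2000 UMIs the expected shares were 4.15% and 4.19%. The share of cells with a UMI therefore follows the depth of sequencing and is no count of cells that express the gene.

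Among the transcription factors, Tead1 was at 19.9 CPM in set 1 and 20.1 CPM in set 2, a fold of 1.01 (0.927 to 1.10). Tead3 was at 7.24 and 7.43 CPM and Tead2 at 2.92 and 2.35 CPM, the latter a fold of 0.804 (0.633 to 1.02). Tead4 gave only 9 and 26 UMIs. Its level was 0.146 CPM (0.0668 to 0.277) in the first set against 0.509 CPM (0.332 to 0.745) in the other, a fold of 3.48 (1.58 to 8.45). Of the 26, 14 came from a single cell, and Tead4 was left out of counts of changed genes for its low total. Of the kinases and their partners, Lats1 stood at 24.5 and 24.8 CPM, Stk3 at 9.35 and 9.96 CPM, Sav1 at 15.2 and 15.3 CPM, and Nf2, the gene of the membrane-linked tumour suppressor merlin, at 11.8 and 12.5 CPM. Levels of different genes are not ranked here, since capture at the 3' end differs between transcripts. None of the 9 members with at least 50 UMIs over both sets reached 1.5-fold on the scale of CPM plus 1: 0 were higher in set 2, against 2.89% of all 12895 genes tested, and 0 were lower, against 1.66%. Both counts are near the background, since few of all genes passed. The counting intervals of the sets overlapped for all 9 members, whereas they stood apart for 38.7% of all genes. The median log2 ratio of the members was 0.02 and that of all genes 0.05.

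**Figure D1:**
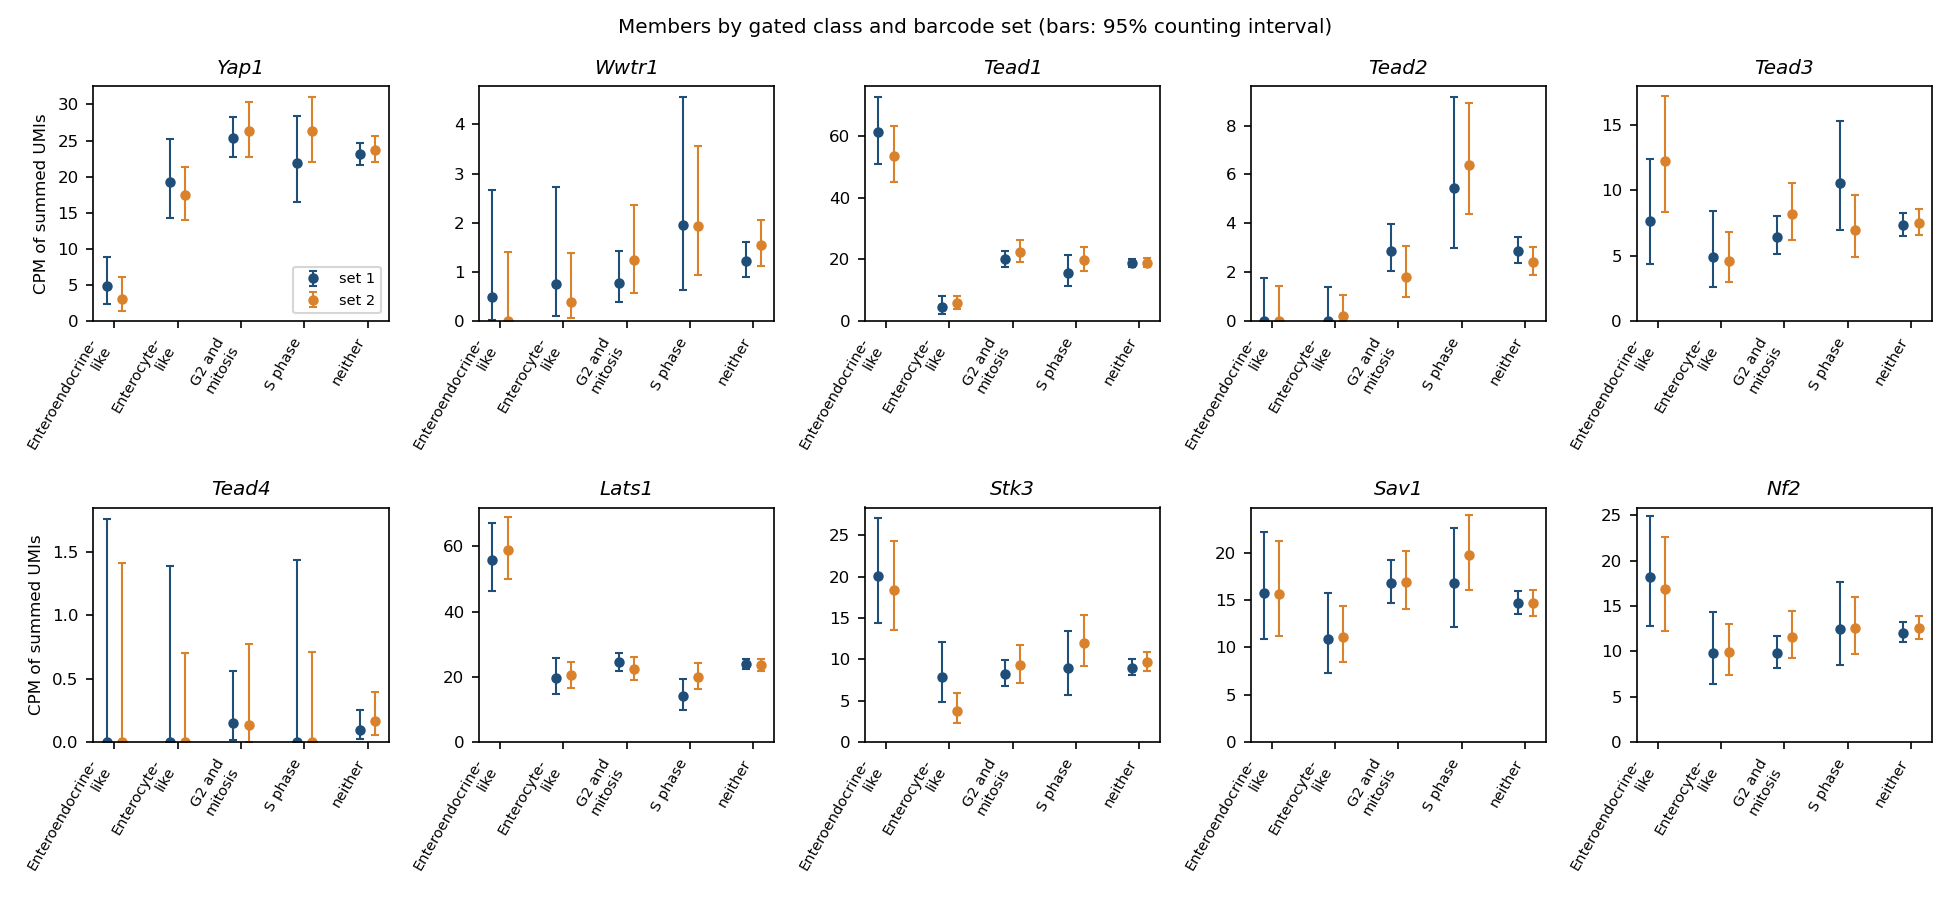
Levels of the members (CPM of summed UMIs, linear axes from 0) by gated class, 1 panel per gene, with set 1 and set 2 as separate points and bars for the 95% Poisson interval. Tead1, Lats1 and Stk3 are highest and Yap1 lowest in enteroendocrine-like cells, and Tead1 is lowest in enterocyte-like cells.

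The enteroendocrine-like cells, known by their granins and other secretory genes, differed most from the other cells. Yap1 was at 4.78 CPM there in set 1 (2.29 to 8.79, 10 UMIs) and at 23.3 CPM in the other kept cells, a fold of 0.205 (0.0981 to 0.378). In set 2 it was at 3.06 CPM (1.32 to 6.03, 8 UMIs) against 23.8 CPM, a fold of 0.129 (0.0554 to 0.255). In both sets the interval of the enteroendocrine-like cells lay below that of every other class, and 6.38% and 4.73% of these cells had a Yap1 UMI. At 2000 UMIs per cell the expected share was 1.04% and 0.578%, against 4.72% and 5.11% in undifferentiated cells with an enteroendocrine score below 0.

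The low Yap1 count of enteroendocrine-like cells was also set against genes that mark other cells. It was 19.6% (9.40% to 36.2%) of the level in those undifferentiated cells in set 1 and 12.0% (5.16% to 23.7%) in set 2. The shares that such genes reached in the same cells varied widely. The stem cell receptor gene Lgr5 was at 6.47% and 7.91% of its level in undifferentiated cells, the mitotic gene Top2a at 6.73% and 5.43%, and the enterocyte gene Fabp1 at 11.7% and 9.83%. The mitotic gene Cenpf was the lowest, at 5.93% and 1.48%. Slc12a2, a crypt ion transporter gene, was at 12.7% in set 1 and 8.28% in set 2. The crypt gene Olfm4 was at 13.6% in set 1 and at 65.2% (17.4% to 173%, 4 UMIs) in set 2. In the other direction, the granin gene Chgb was at 0.131% and 0.106% of its enteroendocrine level in undifferentiated cells with an enteroendocrine score below 0. Chgb is a marker in that score, so the choice of cells itself favours a low share. The 6 genes counted in enteroendocrine-like cells therefore fix no single background level. The Yap1 interval overlaps those of all 6 genes in set 1, and in set 2 it overlaps all but that of Cenpf (0.403% to 3.795%), which it lies above. The part of RNA from other cells in the 10 and 8 Yap1 UMIs was not tested.

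Tead1 went the other way. It was at 61.2 CPM in the enteroendocrine-like cells of set 1 (51.0 to 72.7, 128 UMIs) against 18.5 CPM in other cells, a fold of 3.31 (2.73 to 3.97). In set 2 it was at 53.5 CPM (45 to 63.1, 140 UMIs) against 18.3 CPM, a fold of 2.93 (2.43 to 3.50). These were the highest levels of Tead1 among the classes, and their intervals overlapped with no other. A Tead1 UMI was found in 53.2% and 49.1% of enteroendocrine-like cells, although the median depth of those cells was only 14611 and 14818 UMIs. Tead2 had no UMI in these cells in either set. Placed at a floor of 3 counts per class and set, it was 2.11-fold lower than in other cells in set 1 and 2.16-fold lower in set 2. Its fold intervals reached up to 0.589 and 0.579. Wwtr1 gave 1 UMI in set 1 and 0 in set 2, where at that floor it was 1.56-fold lower (fold interval up to 0.803). Tead3 was at 7.64 against 7.22 CPM in set 1 and at 12.2 against 7.18 CPM in set 2, a fold of 1.06 (0.600 to 1.74) and 1.70 (1.15 to 2.45).

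The Lats1 kinase was also higher in enteroendocrine-like cells. Its level was 55.9 CPM (46.2 to 67.0, 117 UMIs) against 23.4 CPM in set 1, a fold of 2.39 (1.96 to 2.89). In set 2 it was 58.9 CPM (49.9 to 68.9, 154 UMIs) against 23.0 CPM, a fold of 2.56 (2.15 to 3.03). Stk3, which encodes the kinase MST2 upstream of Lats1, was at 20.1 against 8.97 CPM in set 1 and 18.3 against 9.51 CPM in set 2, folds of 2.24 (1.59 to 3.07) and 1.93 (1.40 to 2.60). Its interval lay above those of all other classes in set 1 and overlapped that of S-phase cells in set 2. Sav1, the scaffold that joins the kinases, was level with other cells at 15.8 against 15.2 CPM and 15.7 against 15.3 CPM. Nf2 was at 18.2 against 11.6 CPM in set 1 (fold 1.57, 1.10 to 2.17) and at 16.8 against 12.2 CPM in set 2 (fold 1.37, 0.987 to 1.87), short of the threshold in set 2. The kinases and their partners therefore did not move as a block.

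Counted at 1.5-fold in both sets, 3 of 9 members (Tead1, Lats1 and Stk3) were higher in enteroendocrine-like cells, where 36.4% of all genes were, and 2 of 9 (Yap1 and Tead2) were lower, where 16.8% of all genes were. With a pseudocount of 10 CPM 1 was lower. Both counts are near the background, so the members as a list did not stand out. The median log2 ratio of the members was 0.07 in set 1 and 0.43 in set 2, and that of all genes 0.40 and 0.32. Enteroendocrine-like cells were shallower than the other classes, whose medians ran from 27519 to 40042 UMIs. In cells of 5000 to 20000 UMIs alone, enteroendocrine-like cells had medians of 14279 and 13937 UMIs, and undifferentiated cells with a score below 0 had 12056 and 14519. There Yap1 was at 5.09 and 3.14 CPM against 28.0 and 35.6 CPM, and Tead1 at 60.5 and 60.2 CPM against 21.5 and 25.4 CPM. Lats1 was at 53.7 and 64.9 CPM against 32.4 and 25 CPM, and Stk3 at 20.9 and 20.4 CPM against 7.29 and 11.5 CPM. This comparison changed the reference cells as well as the depth. Against all other cells of that depth, which include cells just under the gate, only 1 member (Tead1) was called higher and 1 lower, and the log2 ratio of Lats1 was 0.40 and 0.86 and that of Stk3 0.55 and 0.42.

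**Figure D2:**
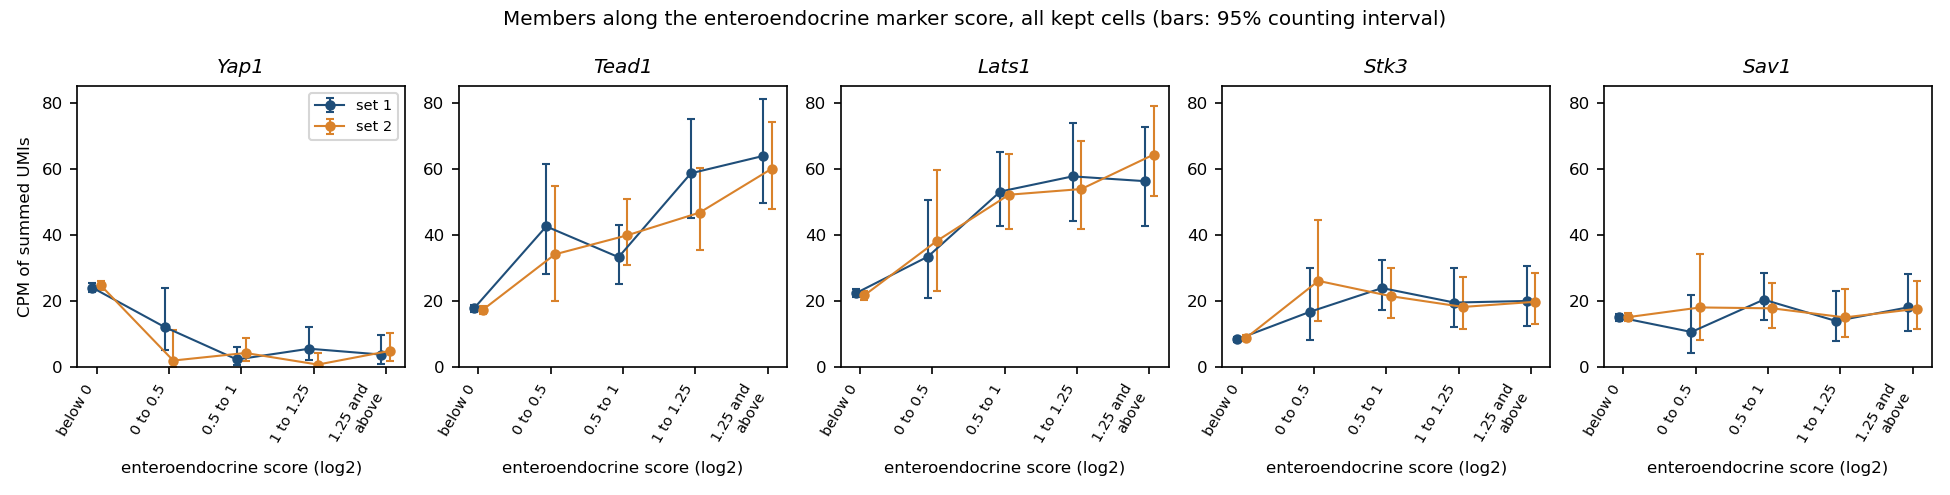
Levels of Yap1, Tead1, Lats1, Stk3 and Sav1 (CPM of summed UMIs) in bins of the enteroendocrine marker score, for set 1 and set 2, with bars for the 95% Poisson interval. Yap1 falls from 24.1 and 24.7 CPM in the lowest bin to 3.81 and 4.94 CPM in the highest, while Tead1 and Lats1 are higher in all 4 bins above it.

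The same pattern ran along the enteroendocrine score, below as well as above the gate. Yap1 was at 24.1 CPM in set 1 and 24.7 CPM in set 2 in cells with a score below 0, and already at 2.33 and 4.29 CPM in cells scoring 0.5 to 1, which the gate leaves out. Tead1 went from 17.7 and 17.3 CPM below 0 to 33.3 and 39.9 CPM at 0.5 to 1 and to 63.9 and 60.03 CPM in the highest bin. Lats1 was at 22.3 and 21.7 CPM in the lowest bin and had reached 53.1 and 52.1 CPM at 0.5 to 1. Stk3 took 8.44 and 8.85 CPM below 0 and 23.9 and 21.5 CPM at 0.5 to 1, with no further increase above. Sav1 stayed between 10.6 and 20.4 CPM in all bins of both sets.

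Within the enteroendocrine-like cells, the early-lineage gene Neurog3 and Tph1, which encodes the enzyme of serotonin synthesis, gave 3 groups of 50 or more cells over both sets. Yap1 was low in each of them, at 3.76 CPM in cells with Tph1 alone, 4.78 CPM in cells with both and 3.38 CPM in cells with neither. Tead1 was at 62.2, 63.1 and 38.8 CPM in the same order. Lats1 was at 54.7, 71.8 and 52.3 CPM, and Stk3 at 15.9, 24.9 and 21.1 CPM. Low Yap1 was thus common to the 3 groups, which together hold no more than the 10 and 8 Yap1 UMIs of the whole class. Cells with neither gene had the lowest Tead1 value. The sets are pooled here and no intervals are given, so this order is not read as a difference between the groups.

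Mature absorptive cells showed another arrangement, with little Tead1 and Tead2 and with Yap1 nearer to the level of other cells. Tead1 was at 4.52 CPM in the enterocyte-like cells of set 1 (2.34 to 7.90, 12 UMIs) against 20.6 CPM, a fold of 0.219 (0.113 to 0.384). In set 2 it was at 5.73 CPM (3.87 to 8.18, 30 UMIs) against 21.7 CPM, a fold of 0.264 (0.177 to 0.379). These were the lowest Tead1 levels of all classes, with intervals apart from the next class in both sets. Tead2 had 0 UMIs in set 1, at the floor 2.699-fold lower than in other cells (fold interval up to 0.460). It had 1 UMI in set 2, a fold of 0.0737 (0.00185 to 0.418). Tead3 was at 4.90 against 7.34 CPM and 4.59 against 7.76 CPM.

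Yap1 was at 19.2 against 22.8 CPM in the enterocyte-like cells of set 1 (fold 0.842, 0.624 to 1.11) and at 17.4 against 23.3 CPM in set 2 (fold 0.746, 0.596 to 0.925). Lats1 was at 19.6 against 24.7 CPM and 20.4 against 25.3 CPM. Stk3 was at 7.92 CPM (4.90 to 12.1) against 9.41 CPM in set 1 and at 3.82 CPM (2.33 to 5.90) against 10.7 CPM in set 2, folds of 0.841 (0.517 to 1.30) and 0.359 (0.217 to 0.560), and the intervals of its level in the sets overlapped. Sav1 was at 10.9 against 15.4 CPM and 11.1 against 15.8 CPM, and Nf2 at 9.80 against 11.9 CPM and 9.94 against 12.8 CPM. All 9 members were below the other cells in both sets (Nf2 in set 1 was above them, at a log2 ratio of 0.13, without the mitochondrial limit), but few passed the threshold. The median of all genes was below the other cells too, so this direction is no trait of the members. Several fold intervals included 1, such as those of Nf2 (0.534 to 1.22 and 0.574 to 1.03). Of the 9, 0 were higher at 1.5-fold in both sets, against 12.6% of all genes, and 2 (Tead1 and Tead2) were lower, against 32.8%. With CPM averaged cell by cell 4 were lower, and with a pseudocount of 10 CPM 1 was. The median log2 ratio of the members was -0.33 and -0.65, and that of all genes -0.36 and -0.38. Along the enterocyte score Tead1 fell from 18.8 and 19.5 CPM in the lowest bin to 13.6 and 10.2 CPM at 0 to 1 and 5.10 and 5.47 CPM at 2 and above. Enterocyte-like cells had median mitochondrial shares of 14.9% and 14.4%, against 9.29% and 9.08% of all kept cells, and the part of this in the result was not tested.

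In cells in G2 or mitosis no member passed the threshold, and few of all genes did. None of the 9 was higher (0, against 1.31% of all genes) or lower (0, against 8.94%) at 1.5-fold in both sets. Both counts are near the background, so the members as a list did not stand out. Yap1 was at 25.3 against 22 CPM in set 1 and 26.3 against 22.1 CPM in set 2, folds of 1.15 (1.02 to 1.31) and 1.19 (1.01 to 1.39). Tead1 was at 19.9 against 19.95 CPM and 22.4 against 19.7 CPM. The median log2 ratio was -0.02 and -0.11, beside -0.06 and -0.06 for all genes.

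S-phase cells were set apart by Tead2, a TEAD gene otherwise known from early embryos. It was at 5.47 CPM in set 1 (2.99 to 9.17, 14 UMIs) against 2.81 CPM in other cells, a fold of 1.95 (1.04 to 3.36). In set 2 it was at 6.38 CPM (4.39 to 8.95, 33 UMIs) against 1.89 CPM, a fold of 3.37 (2.18 to 5.08). The interval of S-phase cells lay above that of the next class in set 2 and overlapped it in set 1. Lats1 was at 14.1 against 25 CPM in set 1 and 20.1 against 25.4 CPM in set 2, folds of 0.563 (0.393 to 0.783) and 0.792 (0.642 to 0.969). Of the 9 members, 1 (Tead2) was higher in both sets, where 2.57% of all genes were, and 0 were lower, where 9.44% were. With a pseudocount of 10 CPM, high beside the level of Tead2, 0 were higher. The median log2 ratio of the members was 0.08 and 0.13, and that of all genes -0.12 and -0.11.

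**Figure D3:**
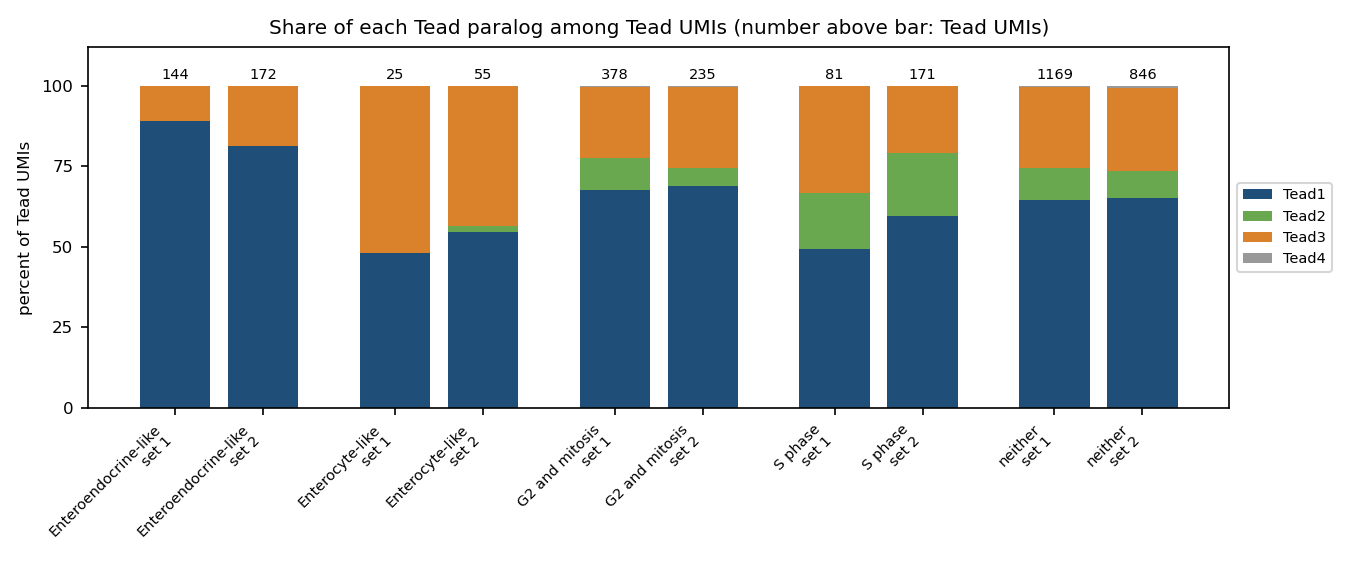
Share of each Tead gene among the UMIs of the 4 Tead genes (percent) by gated class, for set 1 and set 2. Tead1 makes up 88.9% and 81.4% in enteroendocrine-like cells and 48.0% and 54.5% in enterocyte-like cells, and Tead2 is largest in S-phase cells.

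The make-up of the TEAD UMIs differed from that of all cells in both mature classes, toward Tead1 in enteroendocrine-like and toward Tead3 in enterocyte-like cells. Over all kept cells Tead1 gave 65.9% of the TEAD UMIs in set 1 and 66.1% in set 2, Tead3 23.9% and 24.5%, and Tead2 9.66% and 7.73%. In enteroendocrine-like cells Tead1 made up 88.9% of 144 UMIs (82.6% to 93.5%) in set 1 and 81.4% of 172 UMIs (74.8% to 86.9%) in set 2, and the rest was Tead3. In enterocyte-like cells Tead1 made up 48.0% of only 25 UMIs (27.8% to 68.7%) and 54.5% of 55 UMIs (40.6% to 68.0%), and these intervals include the Tead1 share of all cells. Tead3 made up 52.0% (31.3% to 72.2%) and 43.6% (30.3% to 57.7%) there, above its share of all cells. In G2 or mitosis the Tead1 share was 67.7% and 68.9%. Tead2 reached 17.3% and 19.3% of the TEAD UMIs in S-phase cells. These are shares of captured molecules, and they rank no gene against another in protein. There were 1.27 TEAD UMIs per UMI of Yap1 or Wwtr1 in set 1 and 1.245 in set 2 over all kept cells. In enteroendocrine-like cells there were 13.1 (7.10 to 26.8) and 21.5 (10.7 to 50.6), and in enterocyte-like cells 0.472 (0.281 to 0.773) and 0.591 (0.416 to 0.834). The enteroendocrine values rest on 11 and 8 coactivator UMIs, whose origin was not tested.

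**Figure D4:**
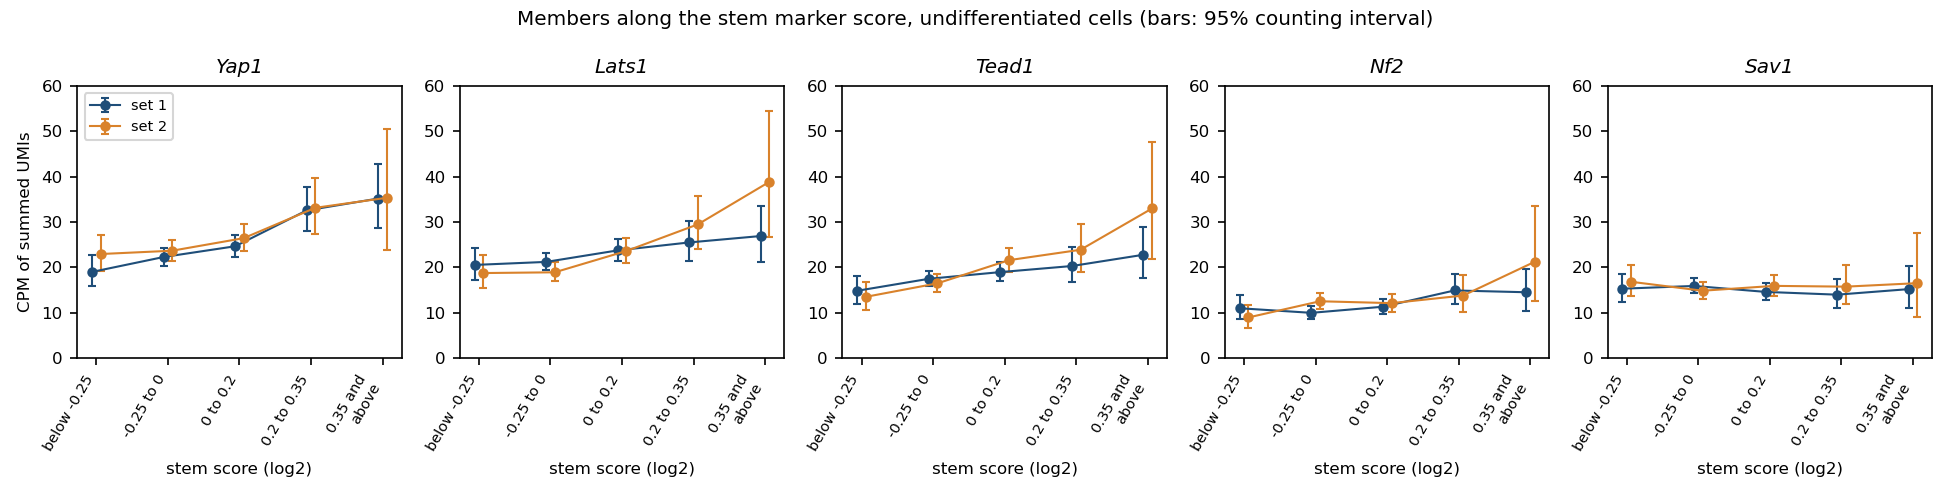
Levels of Yap1, Lats1, Tead1, Nf2 and Sav1 (CPM of summed UMIs) in bins of the stem marker score over undifferentiated cells with an enteroendocrine score below 0, for set 1 and set 2, with bars for the 95% Poisson interval. Yap1 is highest in the top bin (35.2 and 35.3 CPM), and Sav1 stays level.

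Among the undifferentiated cells, Yap1 was higher where markers of crypt stem cells such as Lgr5 and Ascl2 were higher. In set 1 it stood at 19.0, 22.3, 24.6, 32.5 and 35.2 CPM over 5 bins of increasing stem score. In set 2 it stood at 22.9, 23.6, 26.4, 33.1 and 35.3 CPM. The interval of the top bin in set 1 (28.7 to 42.7) lay above that of the lowest (15.8 to 22.6), whereas in set 2 the intervals met (23.8 to 50.4 with 42 cells, and 19.2 to 27.2). Tead1 went from 14.8 to 22.8 CPM in set 1 and from 13.5 to 33.0 CPM in set 2 between the lowest and the highest bin. Lats1 went from 20.5 to 26.9 CPM and from 18.7 to 38.9 CPM. Sav1 was flat, at 15.3 and 15.2 CPM in the end bins of set 1 and 16.8 and 16.5 CPM in those of set 2. The cells of the lowest bin were shallow in set 1, with a median of 4053 UMIs against 32660 in the top bin, and in set 2 the order was turned round (25119 against 19627). The part of depth in this trend was not tested further.

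Some UMIs of Wwtr1 and Tead4, the members with the fewest, lay in small classes. Revival-like cells, named for annexins, Clu and other genes of regenerating crypts, numbered 11 in set 1 and 13 in set 2, so that UMIs are given for the class and levels only for wider bins of its score. They held 5 of 73 Wwtr1 UMIs (6.85%) in 4 cells of set 1 and 17 of 87 (19.5%) in 7 cells of set 2. Of Tead4 they held 2 of 9 UMIs in set 1 and 18 of 26 (69.2%) in 5 cells of set 2, with 14 UMIs in 1 cell, while unnamed cells held 6 Tead4 UMIs in each set. Most Wwtr1 UMIs thus lay outside the revival-like cells. In bins of the revival score over the undifferentiated and revival-like cells with an enteroendocrine score below 0, Wwtr1 went from 1.11 and 1.31 CPM below 0 to 10.8 CPM (3.52 to 25.3) and 13.2 CPM (7.94 to 20.6) at 0.5 and above. The intervals of Yap1 in the lowest and highest of these bins overlapped. In set 1 Yap1 went from 24.3 CPM (interval 23.0 to 25.7) up to 34.7 CPM (interval 19.8 to 56.3, 16 UMIs). In set 2 its lowest bin was at 25.3 CPM (interval 23.7 to 27.0) and its highest at 32.6 CPM (interval 24 to 43.4, 47 UMIs). Lats1 went from 22.5 to 19.5 CPM and from 21.6 to 17.3 CPM, and Tead3 from 7.21 to 2.17 CPM and from 7.67 to 4.86 CPM, also with overlapping intervals. The highest bins held 17 and 26 cells, and Tead4 gave 3 UMIs in that of set 1 and 19 in that of set 2, 14 of them in the 1 cell named. Tuft-like cells, the chemosensory cells of the gut, numbered 4 in set 1 and held 9 of its 180 Tead2 UMIs, in 3 cells.

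**Figure D5:**
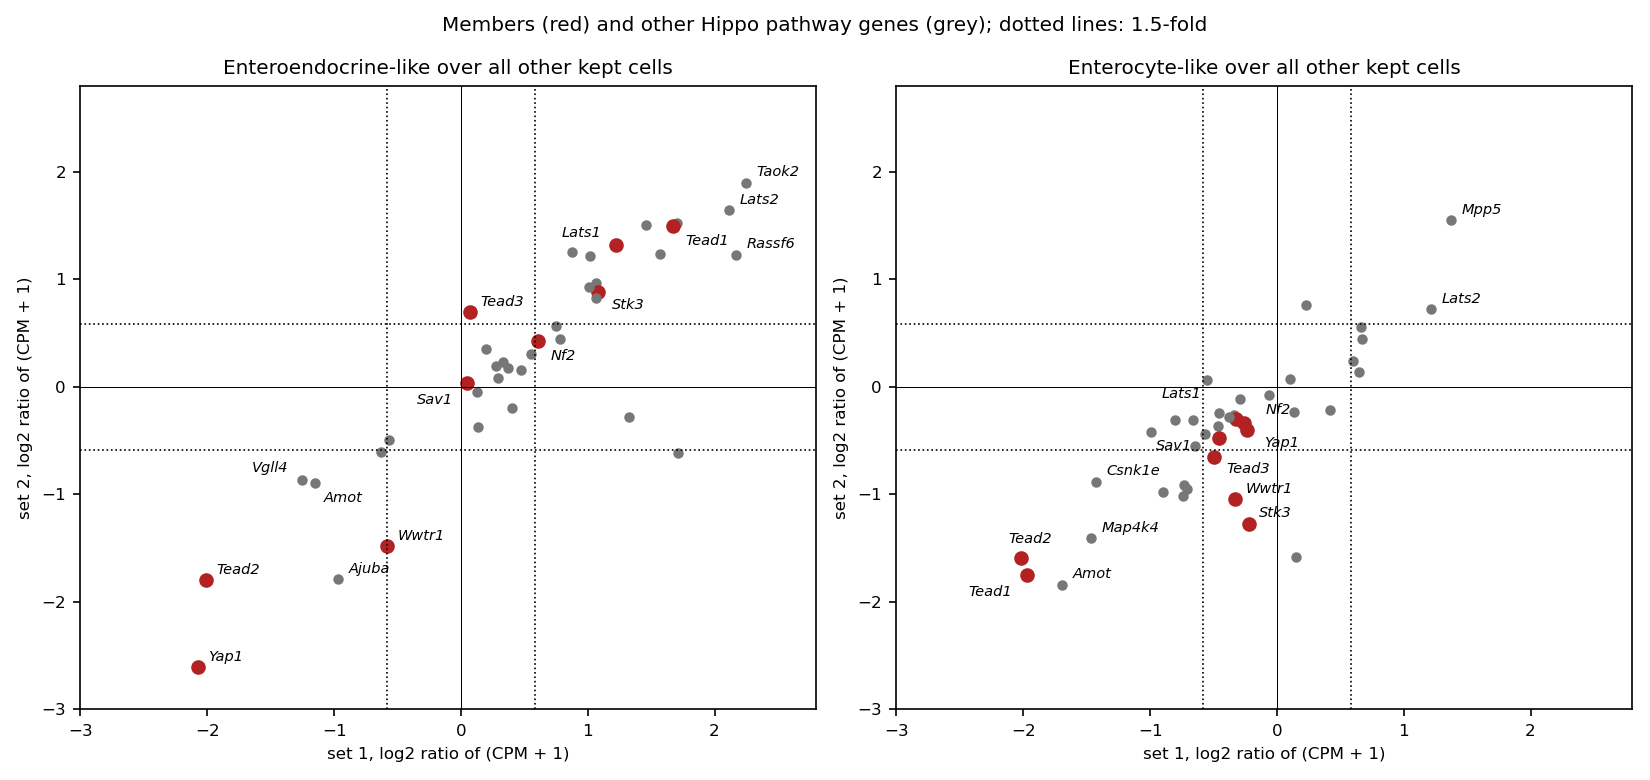
Log2 ratio of CPM plus 1 over other kept cells in set 1 (horizontal axes) and set 2 (vertical axes), with enteroendocrine-like cells on the left and enterocyte-like cells on the right, for the members (red) and other Hippo genes (grey), and dotted lines at 1.5-fold. Tead1 lies at the upper right on the left (1.67 and 1.499) and at the lower left on the right (-1.97 and -1.76).

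A further 36 genes of the pathway were listed, of which 30 had at least 50 UMIs. Between the sets, 4 of the 30 were higher in set 2, beside 2.89% of all genes, and 0 lower, beside 1.66%. The 4 were the kinase gene Lats2 (1.252 against 0.487 CPM), Amotl2 (6.24 against 3.1 CPM), whose product binds YAP, and the LATS inhibitors Ajuba (2.33 against 0.925 CPM) and Wtip (4.36 against 2.42 CPM). Intervals stood apart for 13 of the 30, beside 38.7% of all genes. Lats2, Amotl2 and Ajuba are also known as YAP targets. Without the 5% of cells with most UMIs 1 of the 30 was higher, and with a pseudocount of 10 CPM, or in cells of 5000 to 20000 UMIs, 0 were. In enteroendocrine-like cells 11 of the 30 were higher and 4 lower in both sets, beside 36.4% and 16.8% of all genes, and their median log2 ratio was 0.65 and 0.27. In cells of 5000 to 20000 UMIs 5 were higher, and without the mitochondrial limit, or with a pseudocount of 10 CPM, 1 was lower. The kinase gene Taok2 was at 50.2 against 9.76 CPM in set 1 and 44.7 against 11.2 CPM in set 2. Lats2 was at 4.78 against 0.336 CPM and 5.35 against 1.03 CPM, on 10 and 14 UMIs. Rassf6, which encodes an upstream RAS-association protein, was at 32.5 against 6.43 CPM and 19.5 against 7.73 CPM. Among the lower ones, Vgll4, which encodes a competitor of YAP for TEAD, was at 16.2 against 40.1 CPM and 20.3 against 37.8 CPM. Amot, whose product holds YAP at junctions, was at 8.60 against 20.3 CPM and 9.56 against 18.6 CPM. Of the 4 lower calls, 2 rest on 0 to 2 UMIs a set. Ajuba had 0 UMIs, at the floor 2.14-fold lower in set 2 (fold interval up to 0.584), while in set 1 other cells were under the floor too. Wwc2, an upstream gene named here after its values were seen, had 1 and 2 UMIs, with fold intervals up to 2.12 and 1.69.

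In enterocyte-like cells 2 of the 30 were higher and 7 lower, beside 12.6% and 32.8% of all genes, with a median log2 ratio of -0.42 and -0.27. Over the alternatives the number higher ran from 1 to 3 and the number lower from 4 to 9. Among the lower calls, that of Wwc2 rests on 1 and 2 UMIs and that of Wtip on 3 and 10. Mpp5, a gene of apical polarity, was at 40.0 against 14.8 CPM in set 1 and 49.5 against 16.2 CPM in set 2. Lats2 was at 2.26 against 0.407 CPM and 2.48 against 1.11 CPM, on only 6 and 13 UMIs (fold intervals 1.86 to 14.0 and 1.11 to 4.17). Amot was at 5.65 against 20.5 CPM and 4.78 against 19.7 CPM, and Vgll4, named for its low level in enteroendocrine-like cells, was lower here too, at 21.1 against 40.1 CPM and 19.3 against 38.9 CPM. The upstream kinase gene Map4k4 was at 15.5 against 44.5 CPM and 17.8 against 48.8 CPM, and Csnk1e, for a casein kinase that marks YAP for breakdown, at 10.6 against 30.0 CPM and 14.9 against 28.3 CPM. In G2 or mitosis 0 were higher, beside 1.31% of all genes, and 2 lower, beside 8.94% (Rassf6 at 4.51 against 8.06 CPM and 4.43 against 8.98 CPM, and Wtip at 1.24 against 2.73 CPM and 2.49 against 4.67 CPM). In S phase 1 was higher (Wtip, at 4.69 against 2.32 CPM and 8.69 against 3.88 CPM), beside 2.57% of all genes, and 0 lower, beside 9.44%. Over the alternatives the number lower in G2 or mitosis ran from 0 to 3. For S phase the number higher ran from 0 to 1 and the number lower from 0 to 3.

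A list of 22 YAP target genes, 4 of which are also on the list of other Hippo genes, did not follow the level of Yap1 across classes. Its summed level was 451 CPM in the enteroendocrine-like cells of set 1 and 354 CPM in those of set 2, where Yap1 was lowest, and 130 and 174 CPM over all kept cells. Gadd45a, a stress-responsive gene, gave 51.5% and 50.2% of the enteroendocrine sum. The classical target Cyr61 was at 12.4 and 4.20 CPM in enteroendocrine-like cells and at 13.9 and 36.9 CPM over all kept cells. In enterocyte-like cells the list summed to 202 and 199 CPM, again with Gadd45a in first place. In S-phase cells of set 2 Cyr61 made up 38.1% of a sum of 168 CPM.

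Over the 10 profiles of 5 classes in 2 sets, the genes most like Yap1 by Pearson correlation of log2(CPM + 1), out of 5005 genes at 20 CPM or more, were Sri, Mrpl42, Hes1, Epb41l4aos and Alg5, with r from 0.991 to 0.996. Tead1 had the widest range of any member, 3.49 on the log2 scale against 2.75 for Yap1. Its nearest genes were Srrm2, Fhl2, Rps6ka3, Plekha6 and Prrc2b, with r from 0.989 to 0.997. The profiles share libraries and depth differences between classes, and the values are a description of likeness only.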

How the data were processed

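Per the labels' protocols, droplet-based 3' libraries (version 3 chemistry) were made on culture day 3 from cells pooled from 3 organoid lines per treatment. The submitters' processing notes name Cell Ranger 3.1.0, STAR 2.7.3a and bcl2fastq 2.20.0. The deposited values are whole-number UMI counts per gene and barcode, without normalization, and the genome build of the counts is not given in the sources used here. The table of mouse gene names held 30934 of the 31053 identifiers. The members, gene lists and markers were chosen with earlier results of these data known.

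Barcodes were filtered as described, and no doublet caller was run. Leaving out the 5% of cells with most UMIs was an alternative. A cell's class score is the mean over markers of log2 of UMIs per 10000 plus 1, relative to the mean of all kept cells. Gates were a score of at least 1 with 3 markers detected, and 0.5 for stem and cycle classes. Cells past more than 1 gate of a mature type were held apart, and classes under 50 cells got no level (bins of a score had no such minimum). UMIs were summed per class and set and scaled to CPM, with exact Poisson, conditional binomial (folds) and Clopper-Pearson (shares) intervals. Called genes passed 1.5-fold on CPM plus a pseudocount of 1, in the same direction in both sets for classes, among genes with at least 50 UMIs. A count of 0 was given a floor of 3 counts. Thinned shares are hypergeometric expectations.

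All 10 members are named. Of the other Hippo genes, those called between the sets and up to 3 in each direction per class are named, together with 5 neighbours each for Yap1 and the member of widest range. The computing steps were checked on made-up counts with known answers. Python 3.11.15, numpy 2.4.6, scipy 1.17.1, pandas 2.3.3 and matplotlib 3.10.9 were used. Of the alternatives tried, 12 were set at the outset and 3 were added after seeing the data.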

Additional observations from a re-analysis of the deposited data

How the results depend on the processing

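Of 1470 values recomputed under the alternatives, 1394 stayed within their counting error (for counts of genes, within 1.5 times), 76 moved further and 0 called values changed sign. Of the 1180 ratios of members 49 moved, among them that of Wwtr1 between sets, from 0.31 to -0.14 (log2) when CPM was averaged cell by cell. The number of members called higher in enteroendocrine-like cells ran from 1 to 3, the number called lower there from 1 to 3, and the number lower in enterocyte-like cells from 1 to 4. A pseudocount of 10 CPM left 1 member lower in enteroendocrine-like cells, 1 lower in enterocyte-like cells and 0 higher in S phase. With it, the other Hippo genes had 0 higher between sets, 1 lower in enteroendocrine-like cells, 1 higher and 4 lower in enterocyte-like cells, 0 lower in G2 or mitosis and 0 higher in S phase. Cells of 5000 to 20000 UMIs alone gave 1 member higher and 1 lower in enteroendocrine-like cells, and 0 other Hippo genes higher between sets and 5 higher in enteroendocrine-like cells. Averaging CPM cell by cell gave 4 members lower in enterocyte-like cells, and 0 other Hippo genes higher and 3 lower in S phase. Without a mitochondrial limit 1 other Hippo gene was lower in enteroendocrine-like cells, 4 in enterocyte-like cells and 0 in G2 or mitosis. With the limit at 10%, 1 was lower in G2 or mitosis. Without the 5% of cells with most UMIs, 1 was higher between sets. Genes with at least 200 UMIs gave 2 higher between sets, 2 lower in enteroendocrine-like and 1 higher in enterocyte-like cells. A gate of 0.75 gave 2 lower in enteroendocrine-like cells, and a gate of 0.5 or a pseudocount of 0.1 gave 1 lower in S phase. The cause of these moves was not tested, except that the larger pseudocount shrinks the ratios of low genes by construction. Classes under 50 cells in a set gave no value, namely enteroendocrine-like (20 and 30), S-phase (13 and 38) and G2 or mitosis cells (34 in set 2) at a gate of 1.5, enterocyte-like cells at the 10% limit (17 and 16), and enterocyte-like and cycling cells between 5000 and 20000 UMIs. No paired analysis was possible because both samples hold 1 matrix without replicates.

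The pooled lines, the single matrix and the unlinked suffixes limit every comparison to a description of these cells. Tead4, Wwtr1 and Tead2 had the fewest UMIs of the members, and Tead2 had at most 1 UMI a set in enteroendocrine-like and enterocyte-like cells.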

Other observations

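Several members were also counted in barcodes with a larger mitochondrial share, which the filter leaves out. On the scale of non-mitochondrial UMIs, Yap1 was at 25.1 CPM in the kept cells of each set, at 41.1 CPM in set 1 and 42.2 CPM in set 2 among barcodes of 20% to 50%, and at 29.0 and 42.3 CPM above 50%. Lats1 was at 27.2 and 27.5 CPM in kept cells, 41.6 and 49.4 CPM in the middle range and 38.4 and 47.2 CPM above 50%. For Lats1, Tead1 and Tead3 the intervals in both ranges lay above those of kept cells in each set, whereas Yap1 above 50% overlapped kept cells in set 1, and so did Stk3, Sav1 and Nf2. Stk3 also overlapped kept cells in the middle range of set 2 (11.5 to 16.4 beside 10.1 to 12.0). Tead2 went from 3.24 CPM in kept cells to 2.91 and 2.46 CPM in set 1, and from 2.60 to 2.64 and 1.09 CPM in set 2. Tead4 had no UMI in the middle range of either set. Of 2 genes set beside them, the nuclear RNA Malat1 was at 5330 and 9560 CPM in kept cells at 14445 and 22419 CPM in the middle range, and at 12046 and 27076 CPM above 50%. Epcam, a gene of epithelial cells, was at 1364 and 1192 CPM in kept cells at 1582 and 1211 CPM in the middle range, and at 1269 and 1024 CPM above 50%. The part of nuclear RNA in the levels of the members was not tested.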
